A study of Mus musculus with 6 samples.

Results

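Keratins are the filament proteins that give epithelial cells their mechanical strength, and 7 keratin genes of the mouse corneal epithelium are described here: Krt5, Krt12, Krt14, Krt15, Krt8, Krt18 and Krt19. They are defined by gene symbol and are 7 of the 25006 genes in the count table, which holds 54 keratin genes in all. Total RNA from isolated sheets of the corneal epithelium, the stratified cover of the eye's clear window, was sequenced. There were 3 libraries labelled EphA2 null, from EphA2-/- mice, and 3 wild type libraries; no treatment, age or strain is given in the labels. EphA2, the gene product named in the label, is a cell-surface receptor kinase for ephrin-A proteins. The labels do not say whether each library is a separate animal, so p-values measure the spread between these libraries, which may be technical.

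Total counts ran from 15308013 to 27586942 per library. Epha2 itself was no lower under the EphA2 null label: it stood at 285, 653 and 578 CPM there and at 298, 253 and 563 CPM in wild type 1, 2 and 3. CPM here is the count scaled to a common TMM-adjusted library size. The label is therefore used as given, and the counts per gene would not show the loss of part of the transcript. Each sample title carries a number and a letter. The letter is N for EphA2 null 1, EphA2 null 3 and wild type 1, R for wild type 2 and 3, and B for EphA2 null 2. What the letters mean is not stated. EphA2 null 2 and 3 share one number and wild type 3 has the next, both in a higher range, while EphA2 null 1 and wild type 1 and 2, of which the last pair shares a number, are in a lower range. The meaning of these numbers is not stated, but 5740 of the 12847 genes tested (44.7%) differed between the 3 libraries with the higher and the 3 with the lower numbers at a Benjamini-Hochberg adjusted p under 0.05 (edgeR, quasi-likelihood). That count was 1103 without EphA2 null 1, 3549 without wild type 2 and 3702 without wild type 3. The libraries were therefore compared by genotype label and also by title number, with genotype as a second term. Epha2 was itself higher with the higher numbers, by 1.07 ± 0.11 (SE) on the log2 scale (adjusted p = 0.00174 in edgeR). In that comparison 24.6% of all genes tested were called higher.

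Keratins assemble as pairs of a type I and a type II protein, and each kind of epithelium expresses its own pairs. Krt5 (type II) and Krt14 (type I) are the pair of the basal layer of stratified epithelia such as the epidermis, and Krt15 is another type I keratin of basal cells. Krt12 is the type I keratin that marks corneal epithelium, and in humans mutations in it cause Meesmann corneal dystrophy. Krt8 (type II), Krt18 and Krt19 (type I) are known from simple epithelia, and Krt19 is also known from the conjunctiva and the limbus, the rim of the cornea where its stem cells lie.

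The genes lie in the 2 keratin clusters of the mouse genome (GRCm38, GENCODE M21). On chromosome 15 are Krt5 (chr15:101707070-101712898, minus strand), Krt8 (chr15:101996698-102004482, minus strand) and Krt18 (chr15:102028180-102032027, plus strand), with the starts of Krt8 and Krt18 23.7 kb apart. On chromosome 11, within 0.792 Mb, are Krt12 (chr11:99415666-99422259), Krt15 (chr11:100131758-100135928), Krt19 (chr11:100140810-100148665) and Krt14 (chr11:100203162-100207548), all on the minus strand.

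The 250 bases before the transcript start are shown for Krt5 and Krt12, the most abundant members and the pair with the most similar pattern over the libraries, as the values below show. They come from RefSeq on GRCm38.p6, whose promoter table matched 5 of the 7 members. Krt5 is chr15:101712906-101713155 and Krt12 is chr11:99422260-99422509, both read on the minus strand. Capitals mark matches on either strand to 5 motifs, namely TATAAA as a TATA box, CACCC as a box of Klf factors, GCCNNNGGC as an AP-2 motif, TGANTCA as an AP-1 motif and CAGGTG as an E-box.
Krt5: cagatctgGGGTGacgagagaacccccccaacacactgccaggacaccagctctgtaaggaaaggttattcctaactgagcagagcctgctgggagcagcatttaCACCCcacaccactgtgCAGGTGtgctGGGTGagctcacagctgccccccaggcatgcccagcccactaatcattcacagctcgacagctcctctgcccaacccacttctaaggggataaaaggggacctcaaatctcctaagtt
Krt12: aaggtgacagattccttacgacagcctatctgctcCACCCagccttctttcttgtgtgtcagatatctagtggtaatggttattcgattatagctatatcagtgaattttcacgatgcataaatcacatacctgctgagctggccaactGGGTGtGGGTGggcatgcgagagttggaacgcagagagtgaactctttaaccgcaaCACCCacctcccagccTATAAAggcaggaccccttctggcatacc
The Krt12 window holds TATAAA 29 bases before the start and 4 matches to CACCC. The Krt5 window holds 3 matches to CACCC and 1 to CAGGTG, and no match overlaps another in either window. Of 32851 windows of this length, 52.0% hold CACCC, 17.2% CAGGTG, 13.7% GCCNNNGGC, 12.4% TATAAA and 6.75% TGANTCA. These matches describe the letters only.

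Some reads of these genes could have been counted elsewhere, because keratin genes share stretches of sequence. Of all 50-base words of the Krt14 transcript, 14.4% also occur in Krt16 or Krt17, and the longest stretch shared with Krt16 is 134 coding bases at chr11:100207017-100207150 (minus strand, GRCm38). Of the 50-base words of Krt5, 12.2% occur in other genes, chiefly Krt6a. Every base printed here is common to Krt14 and Krt16.
Krt14 with Krt16: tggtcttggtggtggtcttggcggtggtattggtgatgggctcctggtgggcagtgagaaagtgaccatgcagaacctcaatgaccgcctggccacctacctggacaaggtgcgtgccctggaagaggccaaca
For Krt8 the shared part was 29.7%, mainly with the pseudogene Krt8-ps. For Krt12 it was 42.0%, all with A830036E02Rik, an antisense gene on the opposite strand whose exons cover 54.4% of the Krt12 exon bases. The strand setting of the counting is not given, so reads of Krt12 and of A830036E02Rik cannot be told apart there and the Krt12 level is uncertain. The share was 0.67% for Krt15, 0.72% for Krt18 and 0 for Krt19.

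Krt5 and Krt12 dominated the keratin transcripts in each of the 6 libraries. Per kilobase of exon, Krt5 had 12278 ± 1428 CPM and Krt12 had 7877 ± 726 CPM (SD over 6 libraries). Krt15 followed with 2514 ± 399, Krt14 with 473 ± 140 and Krt19 with 230 ± 64.8 CPM per kilobase. Krt8, at 13.2 ± 6.03, and Krt18, at 3.73 ± 1.45 CPM per kilobase, were the lowest. This order was the same in all 6 libraries, but the place of Krt12 in it carries the uncertainty of the Krt12 level given above. Across libraries the ranges of the neighbours Krt14 and Krt19, and of Krt8 and Krt18, overlapped, and the other neighbouring ranges did not. The 7 genes took 4.43, 5.02 and 4.83% of all counts in libraries labelled EphA2 null and 4.76, 4.54 and 4.72% in wild type libraries, and between 76.7% and 82.7% of the counts of all keratin genes.

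**Figure D1:**
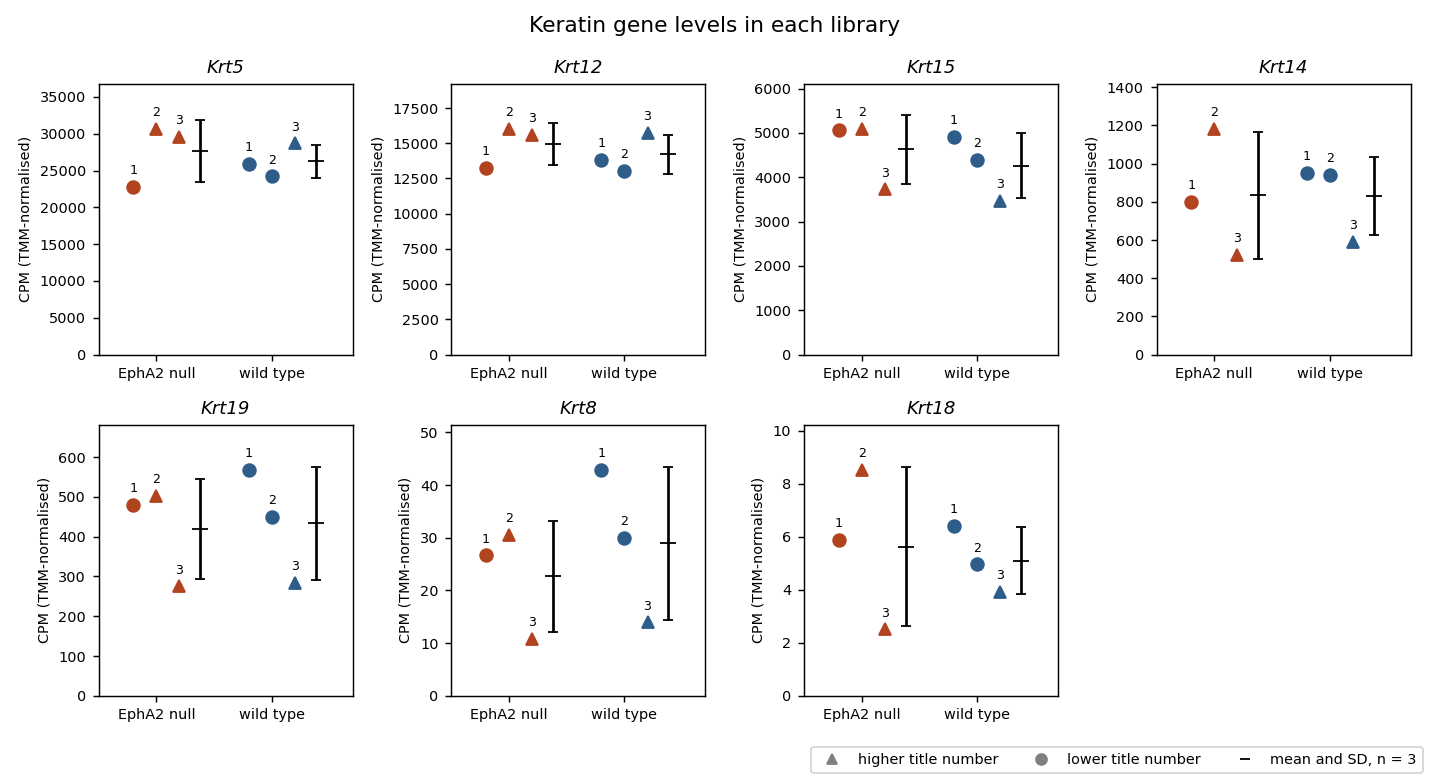
Level of each of the 7 keratins in each library, in TMM-normalised CPM on linear axes that start at 0, with the libraries labelled EphA2 null left of wild type; black marks are the group mean ± SD (n = 3). The genotypes overlap in each panel, and for Krt14, Krt15, Krt8, Krt18 and Krt19 the lowest library of each group is EphA2 null 3 or wild type 3.

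The corneal and basal keratins did not separate the genotypes. Krt5 (ENSMUSG00000061527) had 22805, 30668 and 29553 CPM in EphA2 null 1, 2 and 3, against 25913, 24233 and 28674 CPM in wild type 1, 2 and 3. The lowest and the highest library both carried the EphA2 null label, and the log2 fold change, EphA2 null over wild type, was 0.07 ± 0.17 (SE, 95% interval -0.32 to 0.47). Krt12 (ENSMUSG00000020912) had 13275, 16025 and 15619 CPM in libraries labelled EphA2 null and 13824, 13064 and 15719 CPM in wild type, a log2 fold change of 0.08 ± 0.15 (SE, interval -0.28 to 0.43). Both genes lay in a narrow band, with the highest library 1.34-fold above the lowest for Krt5 and 1.23-fold for Krt12.

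Krt14 (ENSMUSG00000045545), the basal partner of Krt5, varied more. It had 800, 1182 and 522 CPM in libraries labelled EphA2 null, against 953, 942 and 592 CPM in wild type. EphA2 null 2 was the highest and EphA2 null 3 the lowest of the 6 libraries, although they share a title number. The log2 fold change by genotype was 0.01 ± 0.32 (SE, interval -0.73 to 0.75). Krt15 (ENSMUSG00000054146) had 5058, 5094 and 3728 CPM in libraries labelled EphA2 null and 4913, 4399 and 3465 CPM in wild type. Its groups also overlapped, with EphA2 null 3 and wild type 3 the lowest, and the log2 fold change was 0.12 ± 0.19 (SE, interval -0.33 to 0.57).

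The simple epithelial keratins were the lowest of the 7, and Krt8 and Krt18 varied the most. Krt19 (ENSMUSG00000020911) had 480, 503 and 276 CPM in libraries labelled EphA2 null, against 567, 450 and 284 CPM in wild type, so EphA2 null 3 and wild type 3 were again the lowest. Krt8 (ENSMUSG00000049382) had 26.7, 30.6 and 10.8 CPM in libraries labelled EphA2 null and 42.8, 29.9 and 14.0 CPM in wild type. Krt18 (ENSMUSG00000023043) had 5.87, 8.51 and 2.50 CPM in libraries labelled EphA2 null and 6.42, 4.95 and 3.92 CPM in wild type. The same 2 libraries were lowest for Krt8 and Krt18. Log2 fold changes by genotype were -0.05 ± 0.31 for Krt19, -0.35 ± 0.48 for Krt8 and 0.13 ± 0.43 for Krt18 (SE), with intervals of -0.78 to 0.68, -1.49 to 0.78 and -0.88 to 1.14. Krt18 rests on 58 to 173 reads per library and Krt8 on 207 to 888, and their intervals are the widest of the 7.

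By genotype, 0 of the 7 members passed the threshold in edgeR, with an adjusted p of 0.9996 for each and an unadjusted p under 0.05 for none. Over all genes tested, 0.00778% were called by genotype and 1.18% had an unadjusted p under 0.05. DESeq2 and limma voom also called none of the 7. No member had genotype groups that did not overlap, against 3.73% of all genes. The median log2 fold change was 0.07 for the members and 0.01 for all genes tested. These results do not show that the genotypes were equal. In this fit the intervals for Krt5, Krt12 and, narrowly, Krt15 exclude a 1.5-fold difference, and those for Krt14, Krt8, Krt18 and Krt19 do not. Without EphA2 null 3 the log2 fold change of Krt15 was 0.25 ± 0.18 (SE), and without wild type 1 that of Krt5 was 0.07 ± 0.22 (SE). The exclusion is therefore stated for the fit of all 6 libraries only.

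**Figure D2:**
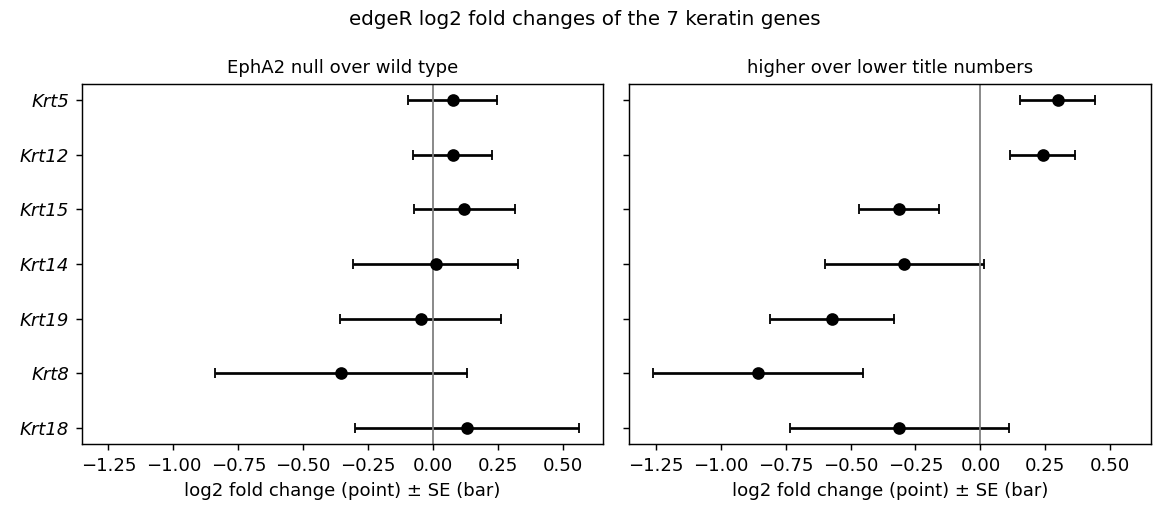
Log2 fold change ± SE of each keratin in edgeR for EphA2 null over wild type and for higher over lower title numbers. By genotype the values lie between -0.35 and 0.13; by title number Krt5 and Krt12 lie above 0 and the other 5 below it.

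Between the title number ranges the genotype difference changed sign for Krt5, Krt12, Krt14, Krt8 and Krt19, and was positive in both for Krt15 and Krt18. EphA2 null over wild type, the log2 difference within the higher numbers was 0.52 for Krt14, 0.57 for Krt8, 0.49 for Krt18 and 0.45 for Krt19; within the lower numbers it was -0.24, -0.45, 0.05 and -0.08. For Krt5 it was 0.07 within the higher and -0.14 within the lower numbers, for Krt12 0.01 and -0.02, and for Krt15 0.35 and 0.12. Each range has a single library of 1 genotype: wild type 3 in the higher and EphA2 null 1 in the lower. EphA2 null 3 stood at 0.88-fold of wild type 3 for Krt14, 0.77-fold for Krt8, 0.64-fold for Krt18 and 0.97-fold for Krt19. The positive differences of Krt14, Krt8, Krt18 and Krt19 within the higher numbers thus rest on EphA2 null 2. The interaction of genotype and title number gave an adjusted p of 0.9991 for each of the 7 in edgeR, with 2 residual degrees of freedom per gene.

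By title number Krt5 and Krt12 had positive and the other 5 keratins negative differences, none of which passed in edgeR. Krt5 and Krt12 had higher values in all 3 libraries with the higher numbers than in any with the lower numbers, a pattern seen in 30.1% of all genes. Their log2 differences, higher over lower, were 0.30 ± 0.14 and 0.24 ± 0.13 (SE), with adjusted p of 0.121 and 0.152 in edgeR. The differences of the other 5 were -0.31 ± 0.15 for Krt15, -0.29 ± 0.31 for Krt14, -0.57 ± 0.24 for Krt19, -0.86 ± 0.40 for Krt8 and -0.31 ± 0.42 for Krt18, with adjusted p of 0.129, 0.459, 0.0812, 0.114 and 0.573. In edgeR 0 of 7 passed, while 24.6% of all genes were called higher and 20.1% lower. DESeq2 called Krt5 and Krt12 higher (adjusted p = 0.0113 and 0.0193), where it called 23.3% of the genes it tested higher, and limma voom called Krt5 (adjusted p = 0.0455), against 24.3% of genes called higher. With no filter on low counts edgeR called Krt15, Krt8 and Krt19 lower (adjusted p = 0.0434, 0.00105 and 0.00147), against 16.6% of genes.

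With the filter on, the calls of the other 5 turned on the library labelled EphA2 null 2. Without it, edgeR called Krt14, Krt15, Krt8, Krt18 and Krt19 lower with the higher numbers, at log2 differences of -0.65, -0.43, -1.35, -0.85 and -0.82 and adjusted p of 0.00215, 0.0133, 0.00156, 0.0207 and 0.00219. In that fit 19.9% of all genes were called lower. For each of these genes EphA2 null 2 was the highest library of the higher numbers, so leaving it out widens the differences by construction. With any other library left out, edgeR called 0 of the 7 members. EphA2 null 2 was 2.27-fold above EphA2 null 3 for Krt14, 2.84-fold for Krt8, 3.40-fold for Krt18 and 1.83-fold for Krt19. These are 4 of the 7 members at 1.5-fold or more, against 5.99% of all genes. Krt15 was 1.37-fold higher in EphA2 null 2, and Krt5 and Krt12 were 1.04-fold and 1.03-fold higher. Wild type 1 and 2, which also share a title number, differed by 1.5-fold or more in 0 of 7 members, against 6.23% of all genes.

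**Figure D3:**
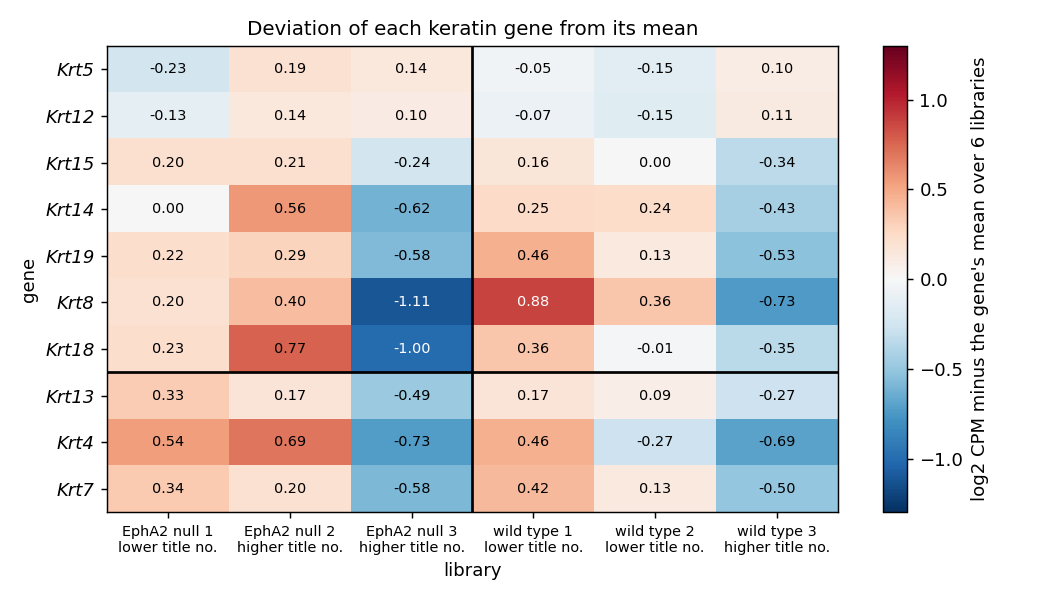
Log2 CPM of each keratin in each library minus its mean over the 6 libraries, as colour and number, with the conjunctival keratins Krt13, Krt4 and Krt7 below the line. Krt5 and Krt12 run together within 0.23 of their means, while Krt14, Krt15, Krt8, Krt18 and Krt19 are lowest in EphA2 null 3 and wild type 3 and at or above -0.01 in the other 4 libraries.

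The 7 genes differed in how much they varied. Over the 6 libraries the SD of log2 CPM was 0.17 for Krt5 and 0.13 for Krt12, 0.24 for Krt15, and 0.45, 0.44, 0.60 and 0.75 for Krt14, Krt19, Krt18 and Krt8, against a median of 0.26 over all genes tested. Likeness was measured as the root mean square distance of log2 CPM, each gene centred on its mean over the 6 libraries. Of the 21 pairs of members Krt5 and Krt12 were the closest, at 0.051, and Krt5 and Krt8 the farthest, at 0.77. Krt15 lay closest to Krt19 (0.21) and Krt14 (0.25), but nearer to Krt12 (0.29) and Krt5 (0.31) than to Krt18 (0.38) and Krt8 (0.51). Krt14 lay closest to Krt19 (0.18), and not to its partner Krt5 (0.46). Krt8 and Krt18 stood 0.35 apart, and Krt8 lay closer to Krt19 (0.30). These distances are descriptions over 6 libraries, and all genes of a library share its depth. They are not scaled by the SD of a gene, so genes that vary little tend to lie close together.

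Outside the 7, the genes of at least 10 CPM with the most similar patterns were found for each member. For Krt5 they were Ap3b1 and Pcbp2 (distances 0.022 and 0.024), and for Krt12 Jak1 and Ube2g2 (0.017 and 0.020). For Krt15 they were Sptlc2 and Ccnb2 (0.054 and 0.061) and for Krt14 Cadps2 and Cracr2b (0.091 and 0.11). Krt19 was closest to another keratin, Krt7 (0.065), followed by Tes (0.096). For Krt8 they were Hspb8 and Alox15 (0.10 and 0.14), and for Krt18 Atf3 and Spaca6, at the larger distances of 0.23 and 0.24. Ap3b1, Pcbp2, Jak1 and Ube2g2 lay closer to their member than Krt5 and Krt12 lay to each other (0.051).

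Because type I and type II keratins pair, their ratios were compared, from counts per kilobase of exon. Summed type II (Krt5 and Krt8) over summed type I (the other 5) was 0.967, 1.12 and 1.22 in libraries labelled EphA2 null, against 1.06, 1.07 and 1.19 in wild type. The ratio of the 7 genes thus lay between 0.967 and 1.22, and the genotypes overlapped (difference of mean log2 ratios -0.01, exact two-sided permutation p = 1.0). Over all keratin genes the type II to type I ratio ran from 1.09 to 1.36, so its level depends on the genes summed. The height of each ratio that includes Krt12 also carries the uncertainty of the Krt12 level given above. Krt5 over Krt12 was 1.45, 1.61 and 1.60 in libraries labelled EphA2 null and 1.58, 1.56 and 1.54 in wild type, the steadiest ratio (exact permutation p = 1.0).

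Krt5 over Krt14 was 22.8, 20.8 and 45.3 in libraries labelled EphA2 null, against 21.8, 20.6 and 38.7 in wild type. It was high in EphA2 null 3 and wild type 3 and between 20.6 and 22.8 in the others (exact permutation p = 0.6 by genotype). Krt8 over Krt18 was 3.34, 2.64 and 3.17 in libraries labelled EphA2 null and 4.90, 4.44 and 2.62 in wild type, with overlapping groups (exact permutation p = 0.4). The share of library counts in the 7 genes differed by 0.0869 percentage points (exact permutation p = 0.8). All 5 adjusted p were 1.0, and 3 against 3 libraries cannot give a p below 0.1. By title number the summed type II over type I ratio was higher by 0.19 on the log2 scale and the Krt8 over Krt18 ratio lower (-0.58), both without overlap and at that smallest exact permutation p of 0.1 (adjusted 0.25).

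**Figure D4:**
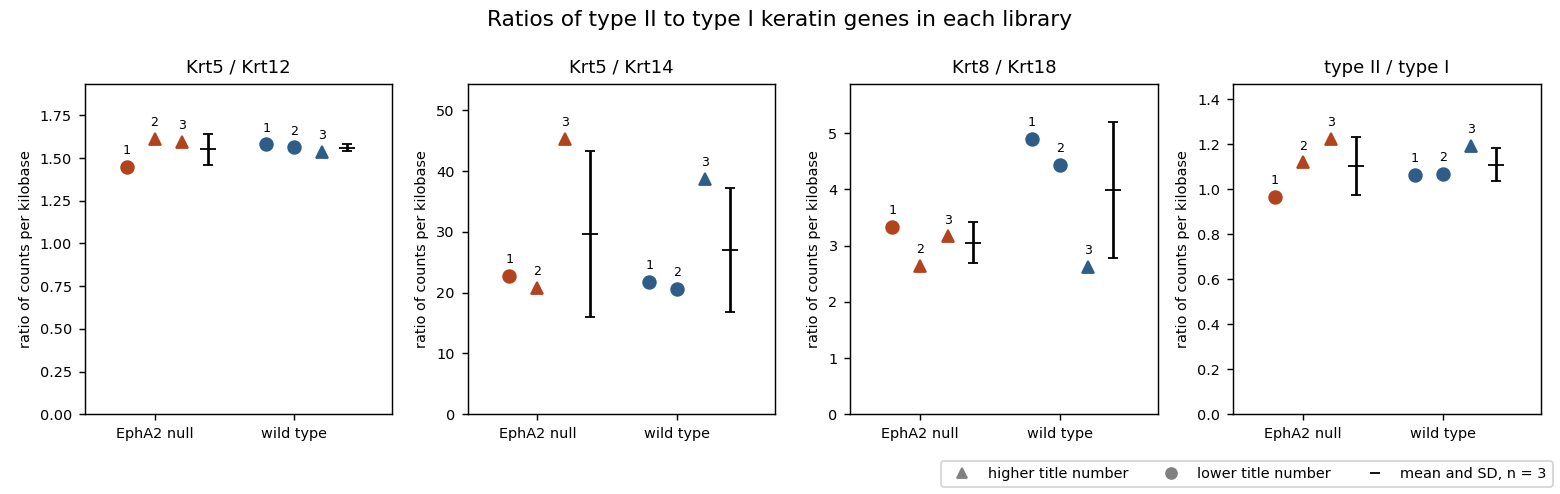
Ratios of type II to type I keratins per library, from counts per kilobase of exon on linear axes from 0, with the libraries labelled EphA2 null left of wild type; black marks are mean ± SD (n = 3). Krt5 over Krt12 stays between 1.45 and 1.61, and Krt5 over Krt14 is highest in EphA2 null 3 (45.3) and wild type 3 (38.7). The Krt12 level is uncertain, and with it the height of the ratios that include Krt12.

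Some markers of neighbouring epithelia had the pattern of Krt14, Krt15, Krt8, Krt18 and Krt19 and others did not. The conjunctival keratins Krt13, Krt4 and Krt7 were also lowest in EphA2 null 3 and wild type 3, though Krt13 and Krt4 did not pass by title number in edgeR (adjusted p = 0.0726 and 0.197): Krt4 had 1587, 1763 and 657 CPM in libraries labelled EphA2 null and 1498, 902 and 675 CPM in wild type. The mucin Muc4 ran the other way, with 5299, 7963 and 7961 CPM in libraries labelled EphA2 null and 6159, 4413 and 8507 CPM in wild type. The goblet cell mucin Muc5ac was low in EphA2 null 2, with 58.8, 2.21 and 1.68 CPM in libraries labelled EphA2 null and 38.5, 5.24 and 0.675 CPM in wild type. Of the 8 conjunctival and goblet markers, 1 rose and 4 fell with the higher title numbers in edgeR, where 24.6% of all genes were called higher and 20.1% lower. Their sum ran from 10981 to 13470 CPM in libraries labelled EphA2 null and from 8869 to 11899 CPM in wild type. Muc4 was the largest part of this sum in each library, followed by Krt13. Of the 5 limbal markers 4 fell, against 20.1% of all genes. For each of the 5, EphA2 null 2 was below all 3 libraries of the lower numbers. It had 29.1 CPM of Gpha2, 30.9 CPM of Ifitm3, 674 CPM of Slc6a14, 1.57 CPM of Cd63 and 40.3 CPM of Krt17. The sum of the 5 was 1027, 776 and 612 CPM in libraries labelled EphA2 null and 843, 864 and 550 CPM in wild type. The part of these cells in the keratin values was not tested, and in bulk RNA fewer cells of a type and less RNA per cell cannot be told apart.

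The defining markers of the labelled tissue were present: Pax6, the eye transcription factor, stood at 815 to 940 CPM and Aldh3a1, a corneal crystallin enzyme, at 13807 to 25282 CPM over the 6 libraries. Of the 5 corneal markers 2 rose and 0 fell with the higher title numbers in edgeR, against 24.6% and 20.1% of all genes. The 2 were Aldh3a1 (0.63 on the log2 scale, adjusted p = 0.0146) and Tkt (0.38, adjusted p = 0.0373). Kera and Lum, markers of the stromal keratocytes, had 0 counts in all libraries, but Pdgfra stood at 9.89 to 16.4 CPM, and the 8 keratocyte and fibroblast markers summed to 11.3 to 16.8 CPM over the 6 libraries. Krt8, Krt18 and Krt19 are also known from Merkel cells, whose factors Atoh1 and Isl1 had 0 counts in all libraries; the 4 Merkel cell markers summed to at most 0.434 CPM. The epidermal keratins Krt1 and Krt10 stood between 4.82 and 6.29 CPM. Leukocyte markers, 7 of 8 of which fell with the higher title numbers against 20.1% of all genes, summed to 21.7, 4.97 and 3.17 CPM in libraries labelled EphA2 null and 29.1, 19.2 and 6.21 CPM in wild type.

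Of the other 47 keratin genes, 21 passed the filter on low counts and 0 were called by genotype. Krt16, a keratin of stressed epidermis that shares sequence with Krt14, had the smallest p: 19.8, 70.8 and 26.7 CPM in libraries labelled EphA2 null and 7.96, 11.5 and 16.9 CPM in wild type, without overlap. Its log2 fold change was 1.69 ± 0.51 (SE) and its unadjusted p 0.0121, but its adjusted p was 0.9996 in edgeR. The next was Krt32, at -0.87 ± 0.44. By title number Krt80 (0.82) and Krt16 (1.07) rose, and Krt75 (-0.85), Krt7 (-0.63) and Krt17 (-0.54) fell in edgeR, on the log2 scale. These are 5 of 21, below the 44.7% called over all genes, and the median over the 21 was -0.14.

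Genes that anchor or modify keratin filaments showed the title number difference widely. Of 23, 22 were tested: 0 were called by genotype, where Hspb1, a small heat shock protein, and the desmosome plaque gene Pkp3 had the smallest p, at log2 fold changes of 0.23 ± 0.23 and 0.20 ± 0.24. By title number 15 rose and 2 fell, where 24.6% of all genes were called higher and 20.1% lower, with a median log2 difference of 0.60, against -0.01 over all genes tested. The desmosome linkers Dsp (1.18, adjusted p = 0.00203), Jup (1.17), Pkp1 (1.10) and Ppl (0.83) and the keratin organiser Fam83h (1.04) were among those that rose in edgeR. Pof1b (-0.40) and Klhl24 (-0.57), a ubiquitin ligase adaptor that in humans targets KRT14, fell. The others that rose, by 0.40 to 0.93, were Evpl, Eppk1, Plec, Trim29, Kctd17, Pkp4, Pkp3, Tchp, Stub1 and Macf1.

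Of 26 transcription factors known to act on keratin or corneal genes, 25 were tested and 0 were called by genotype, with Cebpd (-0.64 ± 0.32) and Fosl1 (1.38 ± 1.13) having the smallest p. By title number 14 rose and 2 fell in edgeR, beside 24.6% and 20.1% of all genes. Those that rose include Klf4 (1.46, adjusted p = 0.00197), a factor of corneal barrier function, Grhl3 (1.18) and Tfap2c (1.01). Fosl1 (2.75), Jun (0.98), Rela, Klf5, Sox9, Tfap2a, Elf3, Cebpb, Foxc1, Grhl2 and Ovol2 were the others that rose, and Ehf (-0.32) and Cebpd (-0.78) fell. Fosl1 had 1.88, 45.3 and 4.78 CPM in libraries labelled EphA2 null and 3.52, 3.32 and 13.3 CPM in wild type. EphA2 null 2 thus stood far above the rest for Fosl1. Trp63, the factor of stratified epithelial basal cells, differed by 0.20 and Pax6 by 0.01 (adjusted p = 0.922 for Pax6), so neither showed the size of the Klf4 difference. Of 16 other intermediate filament genes 7 were tested, 0 called by genotype, and Synm (-0.39 ± 0.30) and Vim (-0.83 ± 0.70) had the smallest p. Vim, the filament of mesenchymal cells and leukocytes, fell by 1.94 with the higher title numbers, at a mean of only 1.07 CPM. The lamin genes Lmna (0.54) and Lmnb1 (0.41) and the progenitor filament Nes (0.66) rose with the higher title numbers. Of the 7 tested, 3 thus rose and 1 fell in edgeR, beside 24.6% and 20.1% of all genes.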

How the data were processed

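The authors deposited 1 table of raw counts per gene for 6 libraries, with Ensembl gene numbers and whole-number values. The aligner, counting program, strand setting and build behind these counts are not stated in any source used here. Genes were named from GENCODE M21 (GRCm38), which held 24991 of 25006 identifiers. Genes that passed filterByExpr (12847) were normalised by TMM and tested with edgeR 4.0.16 (glmQLFit, glmQLFTest) in R 4.3.3, by genotype alone, and by title number range with genotype as a term; adjusted p are Benjamini-Hochberg over all genes tested. The SE is the log2 fold change divided by the square root of F. Ratios and shares used exact two-sided permutation tests, adjusted over 5. Likeness used log2 CPM with a prior count of 2. DESeq2 1.42.0, limma 3.58.1 (voom), other normalisations and filters, summed samples and each library left out were alternatives. No 2 libraries agreed within sampling noise (lowest chi-square per degree of freedom 10.6). All members are described; from 4 further lists, the called genes, or else the 2 with the smallest p, are named. Members, lists and the title number comparison were chosen with earlier results of these data known. The edgeR step was tested on simulated data. Columns of other samples numbered 0.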

Additional observations from a re-analysis of the deposited data

How the results depend on the processing

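No member was called by genotype under any alternative, and 1 gene of all tested was called in edgeR, against 5 in DESeq2 and 0 with samples of a shared title number summed. With each library left out that count stayed at 1. The genotype log2 fold changes are near 0 and their signs depend on the setting. With title number range as a term they were -0.033 for Krt5, -0.0044 for Krt12, 0.022 for Krt8 and 0.18 for Krt19, and with summed samples -0.038 for Krt5, -0.018 for Krt12 and 0.086 for Krt19. Krt14 was -0.035 with upper quartile factors, -0.0034 with genes kept from 1 CPM and -0.0345 in limma voom, and Krt18 was -0.059 in limma voom. With 1 library left out, values ran from -0.0034 to 0.20 for Krt5, -0.33 to 0.25 for Krt14, -0.021 to 0.25 for Krt15, -0.70 to 0.044 for Krt8, -0.29 to 0.49 for Krt18 and -0.29 to 0.19 for Krt19. The type II to type I log2 difference ran from -0.091 to 0.080 and the difference in member share from -0.0445 to 0.252 percentage points. By title number, members called were 3 without a filter (Krt15, Krt8 and Krt19), 2 in DESeq2, 1 in limma voom and 0 to 5 with 1 library left out, the 5 without EphA2 null 2. Genes called ran from 1103, without EphA2 null 1, to 5803, and were 3549 without wild type 2 and 3702 without wild type 3. Krt14 ran from -0.68 to 0.075, positive only without wild type 3. The cause of these changes was not tested. No paired analysis was run, because the labels give no replicate numbers shared by the genotypes and do not explain the title letters. Title number range was run as a term in its place. Krt18 and Krt8 have the fewest reads and the largest SE; counting error was not tested apart from the spread between libraries.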

Other observations

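Gm5478, a protein-coding gene at chr15:101643020-101647380 (GRCm38, minus strand) that shares 82 words of 50 bases with Krt5, was high in 1 library of each genotype. It stood at 1.61, 85.5 and 1.98 CPM in libraries labelled EphA2 null 1, 2 and 3 and at 1.495, 0.816 and 81.8 CPM in wild type 1, 2 and 3. EphA2 null 2 and 3, which share a title number, thus differed 43.2-fold. Krt5 differed 1.04-fold between the same 2 libraries. This gene was chosen after its values were seen. A830036E02Rik, the gene antisense to Krt12, had 1125, 1426 and 1720 CPM in libraries labelled EphA2 null and 1381, 1405 and 1920 CPM in wild type, and was higher by 0.47 on the log2 scale with the higher title numbers (adjusted p = 0.0106 in edgeR).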
